A study of Homo sapiens with 28 samples.

Results

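The TIP60 complex is a large chromatin-modifying assembly built around the acetyltransferase KAT5, which is also called TIP60. The members described here are the genes of 10 of its subunits, KAT5, ING3, EP400, DMAP1, BRD8, MEAF6, EPC1, EPC2, YEATS4 and MORF4L1. They were chosen by gene name, and all 10 were listed in each of 3 tables of RNA levels, which list 13481, 12068 and 12384 genes. All 10 also passed the filter on low values in every table. The study asked how lung cancer cells respond at the RNA level to loss or inhibition of RUVBL1, an AAA+ ATPase that works with RUVBL2 and is itself a subunit of this complex.

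Human non-small-cell lung cancer lines NCI-H2009 (H2009) and NCI-H596 (H596) were used. Cells of each line received 100 nM of compound B, described in the labels as an inhibitor of RUVBL1 and RUVBL2, or 100 nM of compound C, each for 24 h, or stayed untreated. For knockdown, cells received an siRNA to RUVBL1 (siBL1) or a non-targeting siRNA (siNT), for 2.5 days (H2009) or 3 days (H596). Each of the 10 groups has 2 libraries, numbered 1 and 2. The labels give all of these cells as wild type, and compounds B and C are known here only by these names. Each line stands for 1 tumour, and nothing in the labels says that libraries of a group came from separate cultures. The spread that p-values rest on is then that of these libraries, which may be technical.

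In the complex, KAT5 adds acetyl groups to histones H4 and H2A and to non-histone proteins such as the DNA damage kinase ATM. EPC1 or EPC2 holds KAT5, ING3 and MEAF6 together as the catalytic module, and the ATPase EP400 exchanges the histone variant H2A.Z and carries the rest of the complex. BRD8, MORF4L1 and YEATS4 hold domains that bind modified histone tails, and DMAP1 and YEATS4 are shared with a second H2A.Z-exchanging complex, SRCAP.

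Levels are fragments scaled by transcript length and library total (FPKM), as the authors deposited them, so levels may be compared between genes as well as between libraries of a table. How many reads lie behind each FPKM value is unknown. Differences are given on the scale of log2(FPKM + 1), tested with limma and adjusted by Benjamini-Hochberg over all genes of a table, and a gene was called at an adjusted p under 0.05. Libraries with the same number resembled each other across lines and treatments. A second fit, which takes the replicate number as a block, is therefore quoted where it changes a call; it has the same fold changes and smaller errors. Among the members this replicate difference was plainest for MORF4L1, which was lower in library 1 than in library 2 in 10 of 10 groups, and for EP400, which was higher in library 1 in 10 of 10 groups. The labels call both lines adenocarcinoma. In the compound table all 4 squamous markers were listed, with a summed level of 1077 to 1766 FPKM in H596 libraries against 0.58 to 1.74 FPKM in H2009 libraries. Of 4 lung adenocarcinoma markers NKX2-1 and SFTA3 were listed there, summing to 0.33 to 1.22 FPKM in H596 and 33.8 to 179.5 FPKM in H2009, so H596 goes against its label in these markers. In the siRNA tables the 4 squamous markers summed to 344 to 958 FPKM in H596 and 0 of 4 were listed in H2009. Of the adenocarcinoma markers 0 of 4 were listed in H596 there, and the same 2 summed to 71.9 to 145.4 FPKM in H2009. All 5 epithelial markers were listed in every table, at 869 to 4889 FPKM in sum. Of 3 leukocyte markers CD68 alone was listed, at 2.85 to 22.8 FPKM over all libraries. Of 2 endothelial markers CDH5 was listed, in the H596 siRNA table alone, at 1.22 to 1.57 FPKM.

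Compound B lowered the RNA of 3 of 10 subunits in H2009 cells, KAT5, ING3 and YEATS4, and 0 of 10 passed as higher. KAT5, the catalytic subunit, was at 3.57 and 4.01 FPKM with compound B, at 16.7 and 17.8 FPKM with compound C and at 17.8 and 19.6 FPKM in untreated cells. Both compound B libraries lay far below the other 4, which overlapped. The mean of 3.79 ± 0.31 FPKM with compound B was 20.3% of the untreated 18.7 ± 1.31 FPKM (SD, n = 2 each). The log2 difference was -2.04 (SE 0.17, 95% interval -2.41 to -1.67, adjusted p = 0.000217 by limma), and it was -2.04 within each replicate number. It was the 15th lowest of 12781 genes tested. In bulk RNA, less RNA per cell and fewer cells that make it cannot be told apart. Across all genes the same test called 5.02% lower and 6.36% higher. With the replicate block the shares were 19.5% lower and 18.8% higher, and 4 of 10 subunits passed as lower. Marker genes moved in the same libraries. The 2 listed lung adenocarcinoma markers summed to 33.8 to 41.9 FPKM with compound B in H2009, 140 to 180 FPKM with compound C and 126 to 163 FPKM in untreated cells. Of 4 mesenchymal markers VIM and COL1A1 were listed and summed to 20.9 to 22.3 FPKM with compound B, 63.9 to 80.4 FPKM with compound C and 78.6 to 96.0 FPKM in untreated cells, nearly all of it VIM. The sum of the 5 epithelial markers overlapped between the groups. It was 2980 to 3886 FPKM with compound B, 3347 to 4253 FPKM with compound C and 2864 to 4889 FPKM in untreated cells. Single markers did move. CDH1 was higher with compound B, at 218 to 248 FPKM, against 123 to 176 FPKM with compound C and 148 to 156 FPKM untreated. KRT18 was lower, at 465 to 537 FPKM, against 589 to 726 FPKM with compound C and 562 to 849 FPKM untreated. The part of these markers in the result was not tested.

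ING3, the subunit whose PHD finger binds methylated histone H3, fell nearly as far. It was at 5.18 and 4.11 FPKM with compound B in H2009, at 15.8 and 23.0 FPKM with compound C and at 18.9 and 17.0 FPKM in untreated cells. The compound B libraries again lay apart from all others of the line. The log2 difference from untreated cells was -1.75 (SE 0.23, adjusted p = 0.00198 by limma), and the mean was 25.9% of that in untreated cells. Within replicate numbers 1 and 2 it was -1.68 and -1.82. The order of the subunits changed, and not for these 2 genes alone. YEATS4, for example, ranked 2 by FPKM in both untreated H2009 libraries and 3 and 4 with compound B. EPC2 rose from ranks 6 and 4 to ranks 4 and 3. In untreated H2009 cells KAT5 ranked 5 of 10 by FPKM in both libraries and ING3 ranked 4 and 6, whereas with compound B KAT5 was the lowest of the 10 subunits and ING3 the next lowest in both libraries.

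The other parts of the catalytic module did not pass. EPC1, one of the paired scaffold proteins, was at 7.41 and 6.33 FPKM with compound B in H2009 and at 6.87 and 6.92 FPKM in untreated cells, a log2 difference of -0.01 (95% interval -0.42 to 0.40). EPC2, its paralog, was at 22.0 and 22.6 FPKM with compound B, above the 15.6 and 21.6 FPKM of untreated cells, a log2 difference of 0.26 (-0.26 to 0.78). MEAF6, a small subunit that other acetyltransferases of the same family also carry, was at 13.3 and 11.6 FPKM against 14.6 and 15.02 FPKM, a difference of -0.24 (-0.66 to 0.19). These intervals leave room for changes of either sign for all 3 genes, but not for one as large as that of KAT5.

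**Figure D1:**
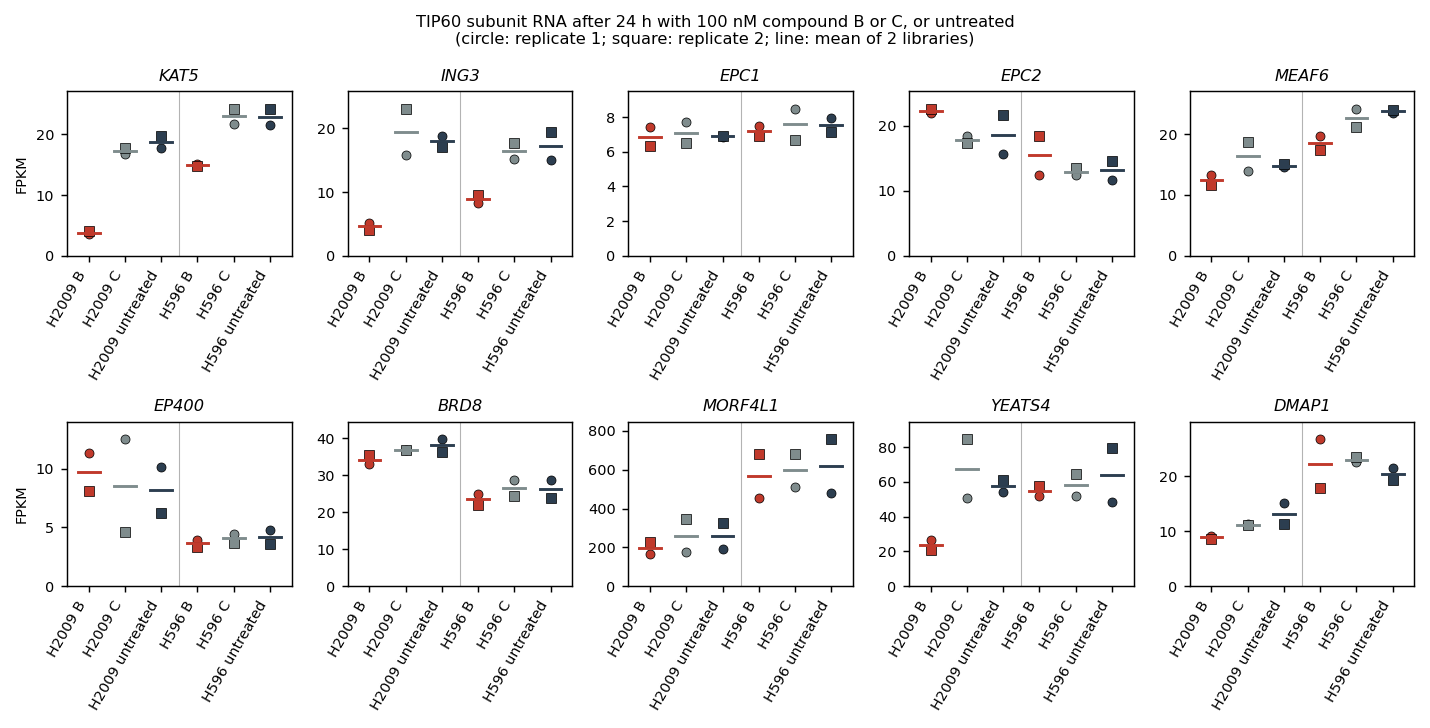
RNA level in FPKM (y axis, from 0, a scale per gene) of each of the 10 subunits in the 12 libraries of the compound table, by line and treatment (x axis; circle and square, replicates 1 and 2; line, mean of 2). In H2009 the compound B libraries of 6 subunits, KAT5, ING3, YEATS4, DMAP1, BRD8 and MEAF6, lie below both untreated libraries. The share of all genes that do so was not counted. KAT5 is at 3.57 and 4.01 FPKM with compound B against 17.8 and 19.6 FPKM in untreated H2009 cells. Compound C libraries of KAT5, ING3 and YEATS4 lie with the untreated ones.

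Of YEATS4, BRD8 and MORF4L1, which like ING3 hold domains that bind modified histone tails, YEATS4 alone passed. It was at 26.7 and 20.6 FPKM with compound B in H2009, at 50.4 and 84.5 FPKM with compound C and at 54.3 and 60.9 FPKM in untreated cells, so the compound B libraries were the lowest of the line. The log2 difference from untreated cells was -1.26 (SE 0.30, adjusted p = 0.0283 by limma), and with the replicate block the adjusted p was 0.0012. This call needs every library: the adjusted p was 0.0957 or 0.164 without compound B replicate 1 or 2, and 0.0892 or 0.134 without untreated replicate 1 or 2, with log2 differences from -1.43 to -1.08. It was 0.0634 in a fit of the 6 H2009 libraries alone. KAT5 and ING3 kept their calls under all 12 alternatives run for this comparison. BRD8, a bromodomain protein, was at 33.2 and 35.4 FPKM with compound B, against 39.8 and 36.4 FPKM in untreated cells, a log2 difference of -0.15 (95% interval -0.55 to 0.25). MORF4L1, a chromodomain protein, was at 163.7 and 229.7 FPKM against 189 and 327 FPKM, a difference of -0.36 (-1.31 to 0.59). Its libraries spread too far for a change of that size to be seen.

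Neither DMAP1 nor EP400 was called. DMAP1, shared with SRCAP, was at 9.15 and 8.63 FPKM with compound B in H2009, against 15.1 and 11.2 FPKM in untreated cells, with no overlap. The log2 difference was -0.51 (SE 0.22, adjusted p = 0.185 by limma), and DMAP1 passed as lower with the replicate block (adjusted p = 0.0263). EP400, the ATPase, was at 11.4 and 8.08 FPKM against 10.2 and 6.22 FPKM, a log2 difference of 0.24 (95% interval -0.63 to 1.11). The median over the 10 subunits was -0.30, beside -0.01 over all genes tested.

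**Figure D2:**
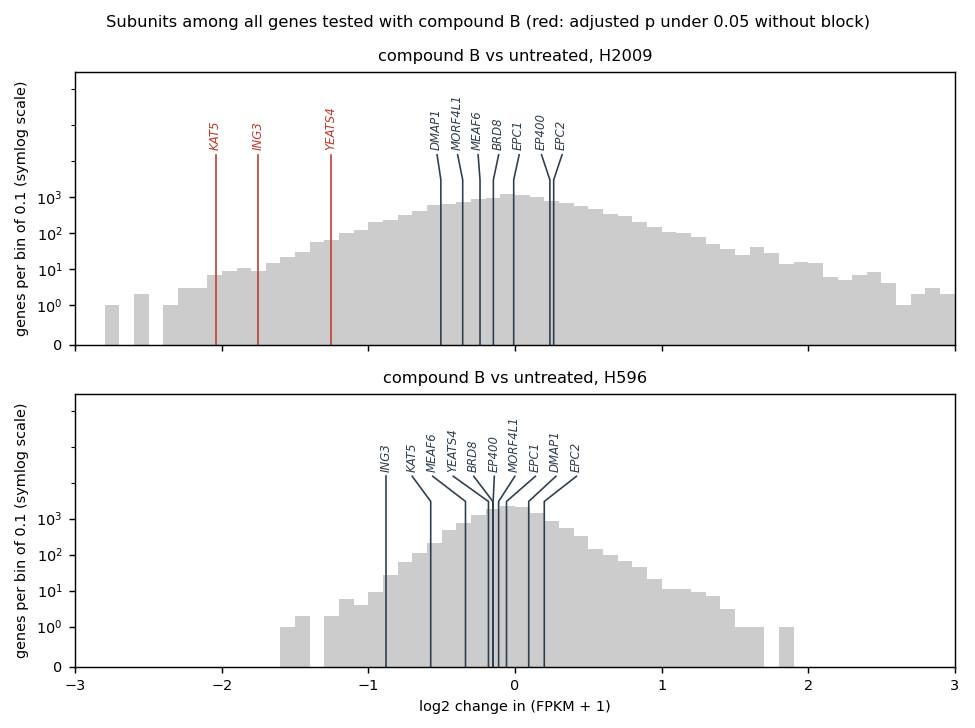
Number of genes (y axis, symmetric log scale, bins of 0.1; the few genes beyond 3 on either side are not drawn) by log2 difference of compound B from untreated cells (x axis) over all 12781 genes tested, H2009 above and H596 below, with each subunit's value as a line. In H2009, KAT5 at -2.04, ING3 at -1.75 and YEATS4 at -1.26 lie in the lower tail and the other 7 within the bulk of genes; in H596, ING3 at -0.88 and KAT5 at -0.58 are the lowest of the subunits.

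KAT5 and YEATS4 were called together, and their promoter sequences are shown because they can be read beside each other. They cover 250 bases before and 50 bases after the gene start, from RefSeq on GRCh38.p14, both on the + strand, at chr11:65712002-65712301 for KAT5 and chr12:69359493-69359792 for YEATS4. Of the 10 subunits 9 were matched in this table; ING3 was not. The sequences run 5′ to 3′, and capitals mark matches on either strand to 5 motifs. These were the core of ETS factor sites (CCGGAAG), the E-box (CACGTG), the cyclic AMP response element (TGACGT), the YY1 motif (AANATGGCG) and the NRF1 motif (CGCANGCGC).
KAT5: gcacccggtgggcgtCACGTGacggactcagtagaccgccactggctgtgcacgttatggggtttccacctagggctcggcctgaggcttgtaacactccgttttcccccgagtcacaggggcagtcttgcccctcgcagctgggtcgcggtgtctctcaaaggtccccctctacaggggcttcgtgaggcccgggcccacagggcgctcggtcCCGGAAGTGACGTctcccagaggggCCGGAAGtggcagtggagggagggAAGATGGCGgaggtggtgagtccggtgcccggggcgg
YEATS4: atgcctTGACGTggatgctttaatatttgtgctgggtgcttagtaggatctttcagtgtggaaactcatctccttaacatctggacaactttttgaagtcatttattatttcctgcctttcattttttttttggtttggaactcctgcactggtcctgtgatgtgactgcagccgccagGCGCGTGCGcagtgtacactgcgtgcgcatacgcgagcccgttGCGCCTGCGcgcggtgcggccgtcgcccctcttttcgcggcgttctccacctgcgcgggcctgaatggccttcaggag
The KAT5 window holds 2 ETS matches and 1 each for the E-box, the cyclic AMP response element and YY1. Its first ETS match, at position -36 from the gene start, runs straight into the cyclic AMP response element at -29 without overlap, so both appear as 1 run of capitals. The YEATS4 window holds 1 cyclic AMP response element, at -244, and 2 NRF1 matches. That element is the one motif of the 5 found in both. Of 35116 promoter windows of this length, 10.3% held the ETS letters, 7.26% the E-box, 7.98% the cyclic AMP response element, 3.19% the YY1 and 7.47% the NRF1 letters, so none of these is rare. The motifs were picked after the windows had been read, and a match describes letters, not a bound site. A longer likeness was found between paralogs that were not called: the windows of EPC2 and of the second start of EPC1 share a run of 26 bases just after the gene start, shown with its YY1 match in capitals.
Run shared by EPC2 and EPC1: taatgtcCGCCATGTTggccatggcg

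In H596 the compound B libraries of 3 catalytic module genes, KAT5, ING3 and MEAF6, lay below both untreated libraries, but no subunit passed. The share of all genes that did so was not counted. KAT5 was at 15.1 and 14.8 FPKM with compound B, at 21.7 and 24.1 FPKM with compound C and at 21.5 and 24.1 FPKM in untreated cells, so the compound B libraries were again lowest. The mean was 65.6% of that in untreated cells, and the log2 difference was -0.58 (SE 0.17, adjusted p = 0.464 by limma). ING3 was at 8.28 and 9.50 FPKM with compound B, at 15.2 and 17.6 FPKM with compound C and at 15.1 and 19.5 FPKM in untreated cells, with no overlap. Its log2 difference was -0.88 (SE 0.23, adjusted p = 0.368 by limma). Across all genes 0% were called in H596, where 735 of 12781 genes and 2 of 10 subunits had an unadjusted p under 0.05. With the replicate block 0.767% of all genes passed as lower and 1.48% as higher, and the 2 subunits that passed as lower were KAT5 (adjusted p = 0.035) and ING3 (0.0332). The 4 squamous markers in H596 summed to 1077 to 1441 FPKM with compound B, 1233 to 1448 FPKM with compound C and 1505 to 1766 FPKM in untreated cells. Their part in these values was not tested. YEATS4 was at 51.7 and 57.7 FPKM with compound B, between the 48.5 and 79.3 FPKM of untreated cells, a log2 difference of -0.18 (95% interval -0.86 to 0.50). The remaining 7 subunits lay between -0.34 for MEAF6 and 0.20 for EPC2. MEAF6 was at 19.7 and 17.5 FPKM with compound B against 23.5 and 23.9 FPKM in untreated cells.

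The response of KAT5 to compound B differed between the lines. Its log2 difference was 1.47 less negative in H596 than in H2009 (SE 0.23, adjusted p = 0.0439 by limma, 0.000981 with the replicate block), and within replicate numbers 1 and 2 this contrast was 1.56 and 1.37. The test of the contrast called 0.125% of all genes in that direction and 0.329% in the other, and 3.46% and 4.78% with the block. KAT5 was the single subunit that passed in either fit. The call was lost without any one of the 8 libraries (adjusted p from 0.101 to 0.213), while the contrast itself stayed between 1.38 and 1.55. YEATS4 and ING3 had contrasts of 1.07 (SE 0.43) and 0.87 (SE 0.32), which did not pass (adjusted p = 0.471 and 0.41 by limma, 0.0602 and 0.0573 with the block). For the other 7 subunits it ran from -0.39 for EP400 to 0.60 for DMAP1.

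Compound C, given at the same dose and time, called 0 of 10 subunits in either line. Of all genes it called 0.00782% in H2009 and 0% in H596 by limma, with 9 and 20 genes and 0 subunits at an unadjusted p under 0.05, and with the replicate block 0 subunits passed as well. The log2 difference of KAT5 from untreated cells was -0.11 in H2009 (95% interval -0.48 to 0.26) and 0.01 in H596 (-0.37 to 0.38). That of ING3 was 0.09 (-0.43 to 0.60) in H2009 and -0.06 (-0.58 to 0.45) in H596. Over the 10 subunits the differences ran from -0.21 for DMAP1 to 0.18 for YEATS4 in H2009, and from -0.10 for YEATS4 to 0.16 for DMAP1 in H596. These intervals exclude a change of KAT5 or ING3 as large as that with compound B in H2009, and they do not show that compound C did nothing.

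Set directly against compound C in H2009, compound B gave lower KAT5, ING3 and YEATS4. The log2 differences were -1.93 for KAT5 (SE 0.17, adjusted p = 0.000291 by limma), -1.84 for ING3 (SE 0.23, 0.0017) and -1.44 for YEATS4 (SE 0.30, 0.0168), and 0 subunits passed as higher. The background was 5.28% of genes lower and 6.16% higher. KAT5 and ING3 passed under all 12 alternatives. For YEATS4 the adjusted p was 0.0693 or 0.114 without compound B replicate 1 or 2 and 0.0971 without compound C replicate 2. In H596 this comparison called 0 subunits and 0.00782% of genes. With the block 0.423% of genes passed as lower and 1.13% as higher, and KAT5 (-0.58, adjusted p = 0.0386) and ING3 (-0.82, adjusted p = 0.0498) passed as lower. The comparisons of compound B with untreated cells and with compound C share the compound B libraries and are not independent of each other.

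**Figure D3:**
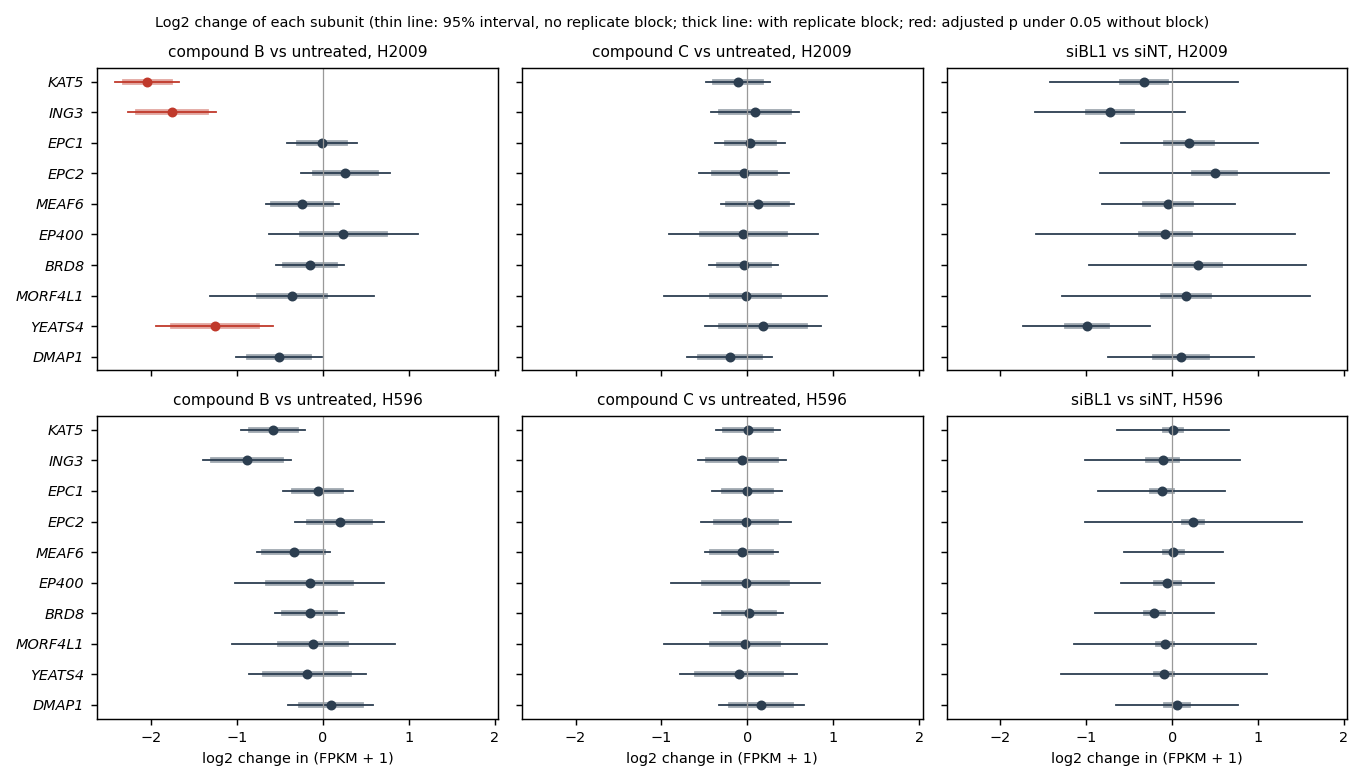
Log2 difference in FPKM + 1 (x axis) of each subunit (rows) for compound B and compound C against untreated cells and siBL1 against siNT, H2009 above and H596 below; thin lines are 95% intervals of the fit without the replicate block, thick lines with it. The 3 values drawn in red, KAT5, ING3 and YEATS4 with compound B in H2009, are those called without the block, and the siRNA intervals are wide without the block.

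After the siRNA, the targeted gene itself was low in both lines. RUVBL1 was at 1.75 and 1.11 FPKM with siBL1 in H2009, against 87.8 and 64.3 FPKM with siNT, and at 2.26 and 2.52 FPKM with siBL1 in H596, against 111.9 and 123.4 FPKM with siNT. Even this difference, -4.98 (SE 0.34) in H2009 and -5.13 (SE 0.22) in H596, missed the threshold in limma without the block (adjusted p = 0.56 and 0.158), where 0% of genes were called in each line. At an unadjusted p under 0.05 there were 532 genes and 1 subunit in H2009, and 137 genes and 0 subunits in H596. So 0 calls among the subunits say little here, and the fit with the block is given beside them.

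In H2009 with siBL1, YEATS4 had the lowest value of the set. It was at 29.8 and 30.9 FPKM with siBL1 against 63.4 and 59.5 FPKM with siNT, with no overlap, a log2 difference of -0.99 (SE 0.28; adjusted p = 0.967 without and 0.000344 with the block). ING3 was at 9.50 and 11.9 FPKM against 15.5 and 21.2 FPKM, also with no overlap, at -0.72 (SE 0.33; 0.967 and 0.00173). KAT5 was at 12.9 and 8.13 FPKM against 17.0 and 10.1 FPKM, and its groups overlapped, since library 2 was lower than library 1 in both. Its log2 difference was -0.33 (SE 0.42; 0.0474 with the block), or 0.02 without siNT replicate 1 and -0.02 without siBL1 replicate 2. With quantile normalization the block fit no longer called KAT5 (adjusted p = 0.0956). EPC2 was at 22.9 and 46.1 FPKM with siBL1 against 16.9 and 30.8 FPKM with siNT, a log2 difference of 0.49 (SE 0.51; 0.00637 with the block). It was near 0 without siBL1 replicate 2 (0.0037) and 0.08 without siNT replicate 1. Within each replicate number KAT5 was lower and EPC2 higher with siBL1. The refits without 1 library set unequal replicate numbers against each other, so they cannot part the replicate difference from an effect of the siRNA. With the block, then, 3 subunits passed as lower and 1 as higher, against a background of 27.0% lower and 15.4% higher. The 2 adenocarcinoma markers summed to 71.9 to 106.6 FPKM with siBL1 and 99.5 to 145.4 FPKM with siNT, and the 2 listed mesenchymal markers to 9.30 to 29.5 FPKM with siBL1 and 19.0 to 74.4 FPKM with siNT, each with overlap; their part in these calls was not tested. Of the other subunits, BRD8 was at 0.30 and the remaining 5 between -0.08 for EP400 and 0.20 for EPC1. With quantile normalization added to the block, BRD8 (0.39) and EPC1 (0.30) passed as higher as well.

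In H596 with siBL1 the log2 differences from siNT ran only from -0.21 for BRD8 to 0.25 for EPC2. KAT5 was at 19.1 and 15.7 FPKM with siBL1 against 18.5 and 15.9 FPKM with siNT, a log2 difference of 0.01 (95% interval -0.64 to 0.67, or -0.08 to 0.11 with the block). ING3 was at 9.06 and 11.9 FPKM against 8.81 and 14.4 FPKM, a difference of -0.11 (-0.28 to 0.06 with the block). YEATS4 was at 25.6 and 46.2 FPKM against 28.2 and 48.2 FPKM, a difference of -0.10 (-0.19 to -0.01 with the block, adjusted p = 0.0779). All 3 genes overlapped between the groups. With the block, BRD8 passed as lower (-0.21, adjusted p = 0.00692) and EPC2 as higher (0.25, adjusted p = 0.00547), against a background of 26.6% lower and 19.8% higher. BRD8 was at 13.9 and 11.3 FPKM with siBL1 against 16.4 and 13.0 FPKM with siNT, so it was lower within each replicate number. EPC2 was at 7.01 and 13.8 FPKM against 5.94 and 11.2 FPKM, so it was higher within each replicate number. Its difference turned to -0.20 without siBL1 replicate 2 and to -0.16 without siNT replicate 1. EPC2 was higher in library 2 than in library 1 in both groups. Those refits set unequal replicate numbers against each other, so they cannot part this replicate difference from an effect of the siRNA. The squamous markers summed to 344 to 521 FPKM with siBL1 and 627 to 958 FPKM with siNT, and their part in these calls was not tested. The times after the siRNA and the tables differ between the lines, so the lines were not tested against each other here.

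**Figure D4:**
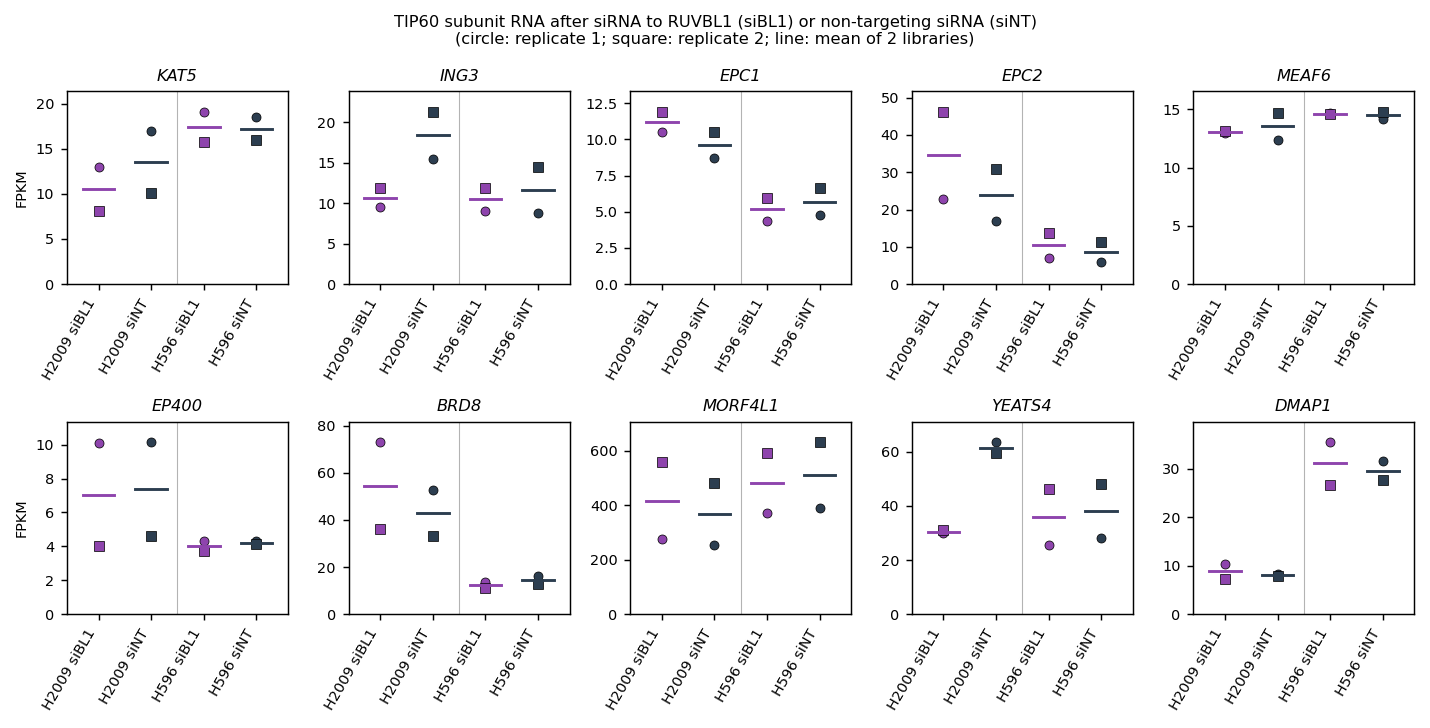
RNA level in FPKM (y axis, from 0, a scale per gene) of each subunit in the 8 siRNA libraries, siBL1 left of siNT in each line (x axis; circle and square, replicates 1 and 2; line, mean of 2). In H2009 the siBL1 libraries of YEATS4, at 29.8 and 30.9 FPKM, and of ING3 lie below both siNT libraries, while for most other subunits the distance between replicates exceeds that between groups.

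Between untreated cells of the lines 2 of 10 subunits were called higher in H596 and 1 of 10 lower, near the shares of all genes. MORF4L1 was the most abundant subunit, at 479 and 757 FPKM in untreated H596 against 189 and 327 FPKM in untreated H2009, a log2 difference of 1.27 (SE 0.42, adjusted p = 0.035 by limma). MEAF6 was also higher in H596, at 23.5 and 23.9 FPKM against 14.6 and 15.02 FPKM in H2009 (0.64, SE 0.19, adjusted p = 0.0205), and BRD8 lower, at 28.6 and 23.8 FPKM against 39.8 and 36.4 FPKM (-0.53, SE 0.18, adjusted p = 0.0377). The groups of these 3 genes did not overlap, but this does not set them apart. Without overlap 5 of 10 subunits were higher in H596 and 3 of 10 lower, and the share over all genes was not counted. Of all genes 24.1% were called higher and 19.1% lower, so 2 of 10 higher and 1 of 10 lower is near the background. With the block 36.5% of genes were higher and 29.6% lower. DMAP1 then passed as higher in H596 (0.61), and EP400 (-0.81) and EPC2 (-0.46) as lower. Without the block EP400 passed as lower with quantile normalization (-0.97, adjusted p = 0.0268), and DMAP1 as higher without untreated H2009 replicate 1 (0.81, adjusted p = 0.0437). Quantile normalization moved the median over all genes from 0.08 to -0.03 in this comparison, and the small difference of EPC1 changed sign with it (0.11 and -0.05). Without the block the calls needed nearly every library. BRD8 and MEAF6 lost theirs without any one of the 4 libraries (adjusted p from 0.0576 to 0.217 and from 0.0676 to 0.087), and MORF4L1 lost its call without untreated H596 replicate 2 (0.191) or untreated H2009 replicate 1 (0.209). In a fit of the 4 untreated libraries alone 0 subunits were called.

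By FPKM the order of the subunits in untreated H596 was MORF4L1 (618 ± 197), YEATS4 (63.9 ± 21.7), BRD8 (26.2 ± 3.41), MEAF6 (23.7 ± 0.28), KAT5 (22.8 ± 1.87), DMAP1 (20.4 ± 1.57), ING3 (17.3 ± 3.13), EPC2 (13.1 ± 2.07), EPC1 (7.55 ± 0.53) and EP400 (4.17 ± 0.82; SD, n = 2 each). Neighbours from BRD8 to ING3 had overlapping libraries, and neighbours at the other steps did not. In untreated H2009 MORF4L1 (258 ± 97.5), YEATS4 (57.6 ± 4.65) and BRD8 (38.1 ± 2.36) again led. KAT5 (18.7 ± 1.31), EPC2 (18.6 ± 4.23), ING3 (17.9 ± 1.30), MEAF6 (14.8 ± 0.27) and DMAP1 (13.2 ± 2.76) followed, above EP400 (8.21 ± 2.82) and EPC1 (6.90 ± 0.03), which overlapped. Some values may hold reads of other genes. KAT5 overlaps RNASEH2C in the annotation, EPC1 an antisense gene and ING3 a noncoding gene. YEATS4 overlaps pseudogenes, EP400 a small nucleolar RNA gene and MEAF6 a microRNA gene. The sources used here do not give how strand was used in counting, although the library kit was a stranded one. RNASEH2C did not move with KAT5, at 16.5 FPKM with compound B and 14.8 FPKM in untreated H2009 cells (0.19, SE 0.40). MORF4L1 has 7 numbered pseudogenes and EP400 and MEAF6 have 1 each, so reads could be split between copies, above all for MORF4L1.

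Further subunits of the complex were read from the same tables. Of 9 of them, 0 were called with compound B in H2009 and their median log2 difference was -0.39, beside -0.01 over all genes. With the block 3 of 9 passed as lower, where 19.5% of all genes did, MRGBP (-0.90, adjusted p = 0.0029), VPS72 (-0.63, 0.0195) and ACTB (-0.60, 0.0291). VPS72, an H2A.Z chaperone, was at 30.2 and 28.8 FPKM with compound B, against 46.1 and 61.4 FPKM with compound C and 49.4 and 43.1 FPKM in untreated cells. Against compound C it fell by 0.83 on the log2 scale (adjusted p = 0.0427 by limma), the single call of the 9. RUVBL1, the ATPase targeted by the siRNA, differed by -0.39 (SE 0.29), RUVBL2 by -0.43 (SE 0.29), MORF4L2, the paralog of MORF4L1, by -0.25 (SE 0.36), and the large scaffold TRRAP by -0.11 (SE 0.33) from untreated cells. The actin-related subunit ACTL6A was at -0.05 (SE 0.38). In H596 0 of the 9 passed in either fit with compound B. With the siRNA and the block, RUVBL1 was the 1 lower and MBTD1 (0.64) the 1 higher in H2009. In H596, with 26.6% of all genes lower, 5 of 9 were lower, RUVBL1, RUVBL2 (-0.23), ACTB (-0.23), ACTL6A (-0.15) and MORF4L2 (-0.14). The counts of lower subunits in both lines include RUVBL1, the target of the siRNA, whose fall was set by the design. Between untreated cells TRRAP was lower in H596, at 3.59 and 3.34 FPKM against 9.89 and 7.48 FPKM in H2009 (-1.11, adjusted p = 0.021).

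Other acetyltransferase genes and genes of the ATM pathway, in which KAT5 acts, were read in the same fits. Of 25 genes of other acetyltransferases of the KAT5 family and their partners, 2 fell with compound B in H2009 and 0 rose. They were MCRS1, at 19.4 FPKM with compound B against 52.2 FPKM in untreated cells (-1.38, adjusted p = 0.00308), and ING5, a relative of ING3, at 1.51 against 3.94 FPKM (-0.98, 0.00781). Of 24 other acetyltransferases and partners in the SAGA and ATAC complexes, 3 fell and 0 rose, TADA1 (-1.62, 0.0151), CCDC101 (-0.99, 0.012) and the acetyltransferase KAT2A (-0.91, 0.0323). The medians of the 2 lists were -0.09 and -0.23, beside -0.01 over all genes, of which 5.02% were lower and 6.36% higher. Of 14 genes of the ATM pathway and break response, 1 fell and 1 rose, with a list median of 0.03. The one that fell was the checkpoint kinase CHEK2, at 2.67 FPKM with compound B against 8.71 FPKM in untreated cells (-1.38, 0.0174). With the block the counts were 6 lower and 2 higher, 8 and 1, and 2 and 1, against 19.5% of all genes lower and 18.8% higher. Set against compound C the named genes other than KAT2A were called too, in the same directions. In H596 and with compound C 0 genes of these 3 lists were called in either fit. With the siRNA 0 of them passed without the block. With it, in H2009, 8 of 25 were lower and 3 higher, 7 of 24 lower and 0 higher, and 4 of 14 lower and 1 higher, against a background of 27.0% lower and 15.4% higher, so the shares that were lower are near it. Among these CHEK2 (-1.62), KAT2A (-1.03) and ING5 (-0.77) were lower. In H596 the counts were 6 lower and 4 higher, 5 and 1, and 6 and 1, against 26.6% lower and 19.8% higher over all genes, with CHEK2 at -0.41. Between untreated cells of the lines, 8 of 25 were lower in H596 and 1 higher, 3 of 24 lower and 2 higher, and 2 of 14 lower and 6 higher, where 19.1% of all genes were lower and 24.1% higher.

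Over the 6 treated-against-control comparisons, the genes with a pattern most like that of KAT5 among 10300 genes tested in all tables were CCDC94, HNRNPD and SNRNP35. Their root mean square difference from KAT5 in log2 change was 0.07, 0.11 and 0.16. For ING3 they were PAK1IP1, TOP1MT and DDIT4, at 0.08, 0.10 and 0.11. KAT5 and ING3 differed from each other by 0.25 in this measure. CCDC94 was at -1.98 with compound B in H2009, -0.53 in H596 and -0.24 and -0.07 with the siRNA, and PAK1IP1 at -1.67, -0.76, -0.76 and -0.23. This ranking describes 6 values per gene, of which the comparisons within a table share control libraries, and carries no test.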

How the data were processed

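RNA was measured in 20 libraries, and 8 further libraries of RUVBL1 or RUVBL2 cDNA were not used here. Per the submitters' processing notes, the authors used TopHat2 2.0.12, Cufflinks 2.2.1 and CASAVA 1.8.2 with hg19; settings and gene annotation are not given in the sources used here. The deposited values are FPKM per gene in 3 tables: both compounds and both lines share one, and each line has its own for the siRNA. Whether the tables were normalized together is not known, so no test crosses them. These FPKM files give no read depth. In H2009 with the siRNA, 19 entries whose names had turned into dates were left out.

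Values were put on the log2(FPKM + 1) scale, which understates changes of genes with low FPKM. Genes were kept at a mean of 1 FPKM or more, in the compound table over either line's 6 libraries, which left 12781, 11223 (H2009) and 12004 (H596) genes. Group means were fitted with limma 3.58.1 in R 4.3.3, with a mean-variance trend, p-values adjusted by Benjamini-Hochberg, on all 12 compound libraries or the 4 libraries of an siRNA table. The procedure was run on simulated data with a smaller spread than that of these libraries. That run does not show how many changes it finds here. Exact permutation of 2 against 2 libraries cannot go below p = 0.333, so single genes were tested through limma alone.

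The difference of replicate 1 from 2 across 10300 genes was correlated in each of the 45 pairs among 10 groups (r 0.475 to 0.979). The labels give groups the same replicate numbers but do not explain them, and a comparison holds 2 numbers. The fit without the block therefore gives the result, and the blocked fit (1 residual degree of freedom for the siRNA) stands beside it.

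Named are all members, RUVBL1, RUVBL2, TRRAP, ACTL6A, VPS72 and MORF4L2, up to 3 called genes of each list and comparison with the largest change, and the 3 genes most like KAT5 or ING3; MRGBP, ACTB, MBTD1 and RNASEH2C are named as counted or overlapping genes. One gene that this rule names is not reported here. The members, lists and marker genes were chosen with earlier results of these data known. Alternatives were the replicate block, a pseudocount of 0.1, no filter or a filter at 5 FPKM, quantile normalization, smaller fits and leaving out each library; a block within each line and the block with quantile normalization were added after seeing the data.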

Additional observations from a re-analysis of the deposited data

Results flagged for a closer look

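The effect of compound B on KAT5 differed between the lines by the test of that contrast. The log2 difference from untreated cells was 1.47 higher in H596 than in H2009. This call held under 5 of 16 alternatives only. With a block within each line ING3 (0.87, adjusted p = 0.0349 by limma) and YEATS4 (1.07, adjusted p = 0.0421) passed in that contrast too.

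Subunits whose siBL1 effect had opposite signs in the lines within both replicate numbers were BRD8 (difference of H596 minus H2009 -0.50), EPC1 (-0.32) and MORF4L1 (-0.24). These differences were not tested, because the lines stand in separate tables and the times after the siRNA differ. With quantile normalization MORF4L1 in H596 was at 0.03, so its sign no longer opposed that in H2009.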

How the results depend on the processing

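KAT5 and ING3 with compound B in H2009 kept their calls under all 12 alternatives, against untreated cells and against compound C. Beside the block, each of these settings changed a count. With the replicate block the numbers of subunits called were 4 and 2 for the siRNA (H2009, H596), 2 for compound B in H596, against untreated cells or compound C, and 6 between untreated lines. Over all genes it called 4758 and 5574 for the siRNA, 4897 and 287 for compound B against untreated cells, 4998 and 198 against compound C, 2 for compound C in H2009, 1053 for the contrast of the compound B effect and 8457 between untreated lines. With quantile normalization added to the block the subunits were 5 and 2, 2 and 2, 3 for the contrast and 6, and the genes 5708 and 5491, 5023 and 252, 4971 and 184, 2, 1351 and 8555. With a block within each line the subunits were 2, 2, 3 and 6, and the genes 5696 and 853, 5829 and 595, 2, 1828 and 8515.

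Without the block, compound B in H2009 changed 1455 genes against untreated cells and 1462 against compound C. A filter at 5 FPKM gave 830 and 880, and the 6 H2009 libraries alone 548 and 504. The contrast called 58 genes, or 12 with a pseudocount of 0.1, 102 without a filter, 6 with the filter at 5 FPKM, 117 with quantile normalization and 11 in the fit of 8 libraries. KAT5 lost its contrast call with the pseudocount of 0.1, the filter at 5 FPKM and the 8 libraries, leaving 0 subunits. Between untreated lines the 4 libraries alone called 0 subunits. Quantile normalization gave 6 genes for compound B in H596. The pseudocount of 0.1 gave 2 genes for compound C in H2009. Compound B against compound C in H596 called 1 gene, and 0 with that pseudocount, without a filter, with the filter at 5 FPKM or in the 6 libraries alone. The share of calls that were higher with compound B in H2009 was 55.9%, or 49.2% with the block and 63.1% in the 6 libraries alone. For the siRNA in H2009 with the block it was 36.4%, or 50.3% with quantile normalization.

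Leaving out 1 library gave 2 subunits in every refit for compound B against untreated H2009 cells, 2 to 3 against compound C, 0 to 1 between untreated lines and 0 in the other comparisons. Genes called were 353 to 660 (B, H2009), 345 to 1634 (B against C, H2009), 8 to 31 (contrast), 0 to 1 (B, H596), 0 (B against C, H596), 1 to 2 (C, H2009), 0 (C, H596), 1 to 12 and 4 to 8 (siRNA, H2009 and H596) and 4015 to 4510 (untreated lines). Of 396 such refits of the 90 values not called without the block, 89 changed sign and 1 became called, DMAP1 between untreated lines without untreated H2009 replicate 1 (0.81, adjusted p = 0.0437 by limma). Leaving out 1 library moved KAT5 with the siRNA in H2009 between -0.67 and 0.017, and EPC2 in H596 between -0.20 and 0.69. Such refits leave the replicate numbers unequal between the groups, so these shifts hold the replicate difference too.

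Quantile normalization, with or without the block, turned the sign of EP400 (0.0092) and MEAF6 (0.053) with the siRNA in H2009 and of MORF4L1 in H596 with the siRNA (0.029), compound B (0.125), compound C (0.064) and B against C (0.061). It also turned BRD8 in B against C in H2009 (0.015) and EPC1 in the contrast (0.0067) and between untreated lines (-0.050). None of these values was called. Quantile normalization without the block called 1 further value, EP400 between untreated lines (-0.97, adjusted p = 0.0268). The cause of these changes was not tested. The files give no depth, so it is unknown how far depth limits the lower values, such as KAT5 with compound B.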
